A study of Mus musculus with 768 samples.

Results

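The genes described here encode the subunits of the mitochondrial respiratory chain and of the ATP synthase, together called oxidative phosphorylation. They were chosen by gene symbol alone, as all genes named for subunits of complex I (Nduf), complex II (Sdh), complex III (Uqcr), complex IV (Cox4 to Cox8) and complex V (Atp5), and all protein genes of the mitochondrial genome. The rule found 98 of the 52636 genes in the tables. Of these, 85 lie in the nuclear genome, with 38 in complex I, 4 in complex II, 8 in complex III, 18 in complex IV and 17 in complex V. The other 13 lie in mitochondrial DNA, with 7 in complex I, 1 in complex III, 3 in complex IV and 2 in complex V. Some names stretch the class: Atp5s, Atp5sl and Cox7a2l are not counted as standing subunits of the complex they are named for, Ndufa4 is now placed in complex IV, and cytochrome c1 (Cyc1) is missed by the rule.

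The cells came from cochlear organoids of mice that carried Sox2-GFP, Fgfr3-CreERT2 and Ai14-tdTomato. Sox2-GFP marks Sox2-expressing cells, and the other alleles form a tamoxifen-dependent Cre in Fgfr3-expressing cells with its red reporter; whether Cre was induced is not given in the sources used here. On postnatal day 2, greater epithelial ridge cells (GER, from the inner side of the developing organ of Corti) were sorted, and all groups were grown in the same medium with EGF, FGF2, IGF1, CHIR99021 (a GSK3 inhibitor), valproic acid (a histone deacetylase inhibitor), 2-phospho-L-ascorbic acid and the TGFβ receptor inhibitor 616452. The 3 groups differ in the time in culture: Day 1 (3 cultures), Day 3 (3 cultures) and Day 7 (5 cultures). A culture is a replicate number of the labels, which do not say whether cultures came from separate mice, so p-values measure the spread between these cultures. There were no uncultured cells among the groups, and every comparison is between times in the same medium.

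In the respiratory chain, complexes I and II pass electrons from NADH and succinate to ubiquinone, complex III passes them to cytochrome c and complex IV to oxygen, and the proton gradient that results drives complex V to make ATP. Complex II is made from nuclear genes only, while each of the others joins subunits made on cytosolic ribosomes with subunits made inside the mitochondrion. The mitochondrial genes are transcribed as long transcripts that hold many genes at once and are cut afterwards, whereas every nuclear subunit has its own promoter. The balance of both sets of transcripts is therefore a standard way to look at how the 2 genomes are used together.

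After removal of cells with few reads, few genes or over 20% of reads on mitochondrial genes, 37 to 86 cells per culture were kept. Their reads were summed per culture to 26391412 to 72483565 reads on genes. Epithelial and GER markers were present in every culture, and the summed level of 12 GER and supporting cell markers was 12119 ± 2216 CPM (reads of a gene per 1000000 reads of the library, scaled by TMM; SD, n = 3) on Day 1, 6395 ± 2039 on Day 3 and 3513 ± 1118 (n = 5) on Day 7. Tectb made up most of that sum on Day 1, and had 8308 ± 2690, 3622 ± 2058 and 691.7 ± 401.2 CPM on Days 1, 3 and 7. In the edgeR comparison of Day 7 with Day 1, 4 of the 12 genes were lower at an adjusted p under 0.05, beside 3.56% of all genes. Another 2 of the 12 had values above 0. Markers of other sources were low: at most 11.2 CPM summed over 5 endothelial genes, 9.44 over 6 blood and immune genes and 45.2 over 7 mesenchymal genes in any culture, with Pecam1, Kdr and Cldn5 at 0 reads throughout. Hair cell genes summed to at most 214.2 CPM, glial genes to at most 88.03 and neuronal genes to at most 440.9 on Day 1 and 186.03 on Day 7, the last mostly from Isl1 (353.7 CPM on average on Day 1). The share of cells with reads in at least 3 of 6 proliferation genes was 15.3% to 23.7% in the Day 1 cultures, 54.2% to 66.7% on Day 3 and 25.3% to 86.96% on Day 7. Both this shift and the fall of the GER marker sum ran alongside the day comparisons below, and their part in them was not tested. Day 7 culture 5 had the fewest genes per cell, a median of 5179 at 200000 reads, with Day 7 culture 2 close to it at 5333. Culture 5 also had the lowest share of proliferating cells on Day 7 (25.3%).

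The mitochondrial genes are short, lie end to end and in places overlap, which limits how reads can be assigned among them. The longest such overlap is between mt-Atp8 and mt-Atp6, the 2 mitochondrial subunits of ATP synthase, which share 43 bases at chrM:7927-7969 on the forward strand (GRCm38). It is shown because a read from it belongs to both genes. The capitals mark the start codon of mt-Atp6, which is read in another frame than mt-Atp8:

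mt-Atp8/mt-Atp6 overlap: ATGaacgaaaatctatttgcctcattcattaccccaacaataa

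A second limit is a stretch of nuclear DNA on chromosome 1 (24611535 to 24616197, reverse strand) annotated with unprocessed pseudogenes that are copies of mitochondrial genes. Their annotated bases match mt-Co1, mt-Co2, mt-Atp6, mt-Co3, mt-Nd3, mt-Nd4l and mt-Nd4 at 99.7% to 100%, so most reads from either place carry the same letters. For mt-Nd3, a complex I subunit at chrM:9459-9806, the copy Gm28438 differs by 1 base over its annotated length, the substitution T3C, counted from 1 at the first base of the coding sequence with the base of mt-Nd3 named first. The first 61 bases of both are shown with that base in capitals:

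mt-Nd3: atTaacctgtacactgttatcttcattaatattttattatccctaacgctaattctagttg

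Gm28438: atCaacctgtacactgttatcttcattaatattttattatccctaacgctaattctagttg

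The deposited counts place many reads on these copies. Of the reads given to a gene and its chromosome 1 copy together, the copy held 96.3% for mt-Nd4l, 76.5% for mt-Nd3, 67.4% for mt-Co3, 43.8% for mt-Atp6, 20.3% for mt-Co2, 10.2% for mt-Co1 and 0.34% for mt-Nd4. The copies on chromosome 1 and 4 further copies elsewhere held 1.15% of all reads, beside 2.17% to 6.12% for the 13 mitochondrial genes by culture. Levels of mt-Nd4l, mt-Nd3, mt-Co3 and mt-Atp6 as counted are thus uncertain, and results are given with these reads added where that matters. Among the 85 nuclear genes, 28 shared at least 150 bases at 95% identity or more with another gene or pseudogene. For 7 of them (Ndufb4, Atp5f1, Cox4i1, Ndufb5, Ndufs5, Cox7a2l and Ndufa12) the other gene held over 5% of the reads of both. None of the nuclear genes that rose by Day 7 was among these 7.

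Levels were compared between genes as CPM per kilobase of the longest annotated protein-coding transcript, averaged over the 11 cultures. The mitochondrial genes were the higher set, with a median of 1308 CPM per kb over 13 genes, against 118.1 over the 82 nuclear genes with any read. Within the mitochondrial set, mt-Co1, the catalytic subunit of complex IV, was highest at 8950 ± 2753 CPM per kb (SD, n = 11) and gave 37.1% of the CPM of the set. The next was mt-Cytb, the electron-transferring subunit of complex III, at 6448 ± 2466. Below it, mt-Co2 (4432 ± 1707) and mt-Co3 (4288 ± 852) did not differ beyond their spread, nor did mt-Atp6 (3101 ± 1326) and mt-Nd1 (3056 ± 636.3). The remaining complex I genes were lower, at 1308 ± 361.9 for mt-Nd5, 993.4 ± 272.6 for mt-Nd4, 598.7 ± 198.1 for mt-Nd2, 215.7 ± 52.52 for mt-Nd6, 207.2 ± 83.94 for mt-Nd3 and 11.7 ± 5.25 for mt-Nd4l. The level of mt-Atp8 was 213.2 ± 60.1. Part of this order depended on the copies: with their reads added, mt-Co3 came to 13106 ± 3650 CPM per kb, above mt-Co1 at 9981 ± 2958, and mt-Nd4l came to 301.5 ± 52.01. The gene mt-Nd6 is the only one of the 13 on the reverse strand, and since SmartSeq2 does not mark strand, its reads cannot be told from those of the opposite strand.

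Among the nuclear genes, Atp5b, the catalytic beta subunit of ATP synthase, had the highest level at 899 ± 145.97 CPM per kb, followed by Cox4i1, a structural subunit of complex IV, at 605.7 ± 126.6. Grouped by gene name, the highest in complex I was Ndufa4 (326.8 ± 92.39), which is now placed in complex IV. In complex II it was the iron-sulphur subunit Sdhb (222.7 ± 46.38) and in complex III Uqcr11 (352.2 ± 96.75). The lowest in complexes II and III were the membrane anchor Sdhc (34.8 ± 4.52) and Uqcrq (94.8 ± 34.2). Among genes named for complex V it was Atp5s (7.44 ± 2.91), not counted as a standing subunit. In complex I, apart from a gene with no read, it was Ndufb2 (12.2 ± 3.47). The annotated transcript of Ndufb2 is 4371 bases and that of Sdhc 3171, and a shorter transcript in these cells would raise their values. In cells thinned to 200000 reads each, 72 of the 85 nuclear genes had a read in at least 90% of cells.

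Several complex IV subunits and the c ring of ATP synthase exist as alternative isoforms made from different genes, some of them typical of heart and skeletal muscle, lung or testis. In each complex IV pair the ubiquitous form made up at least 88.55% of the transcript per kb in every culture. Cox4i1 was 99.2% to 99.7% of the Cox4 pair by day, and Cox6a1 99.7% to 100%. Cox7b2 had 14 reads in all cultures together and the heart and muscle gene Cox6a2 had 88, all on Day 3. The genes Cox8b, Cox8c and Ndufa4l2 were listed with 0 reads in every kept cell, so Cox8a and Ndufa4 made up all of their groups. Cox6b2, known from testis, was the largest minor form of a pair: it was 3.68% of the Cox6b pair on Day 1 (range over cultures 2.62% to 4.46%), 9.23% on Day 3 (6.78% to 11.5%) and 7.68% on Day 7 (6.35% to 8.95%), and the ranges of Days 3 and 7 lay above that of Day 1. Its fitted change was 1.47 ± 0.42 (log2, SE) from Day 1 to Day 3, with an adjusted p of 0.279. By CPM, 9.88% of all genes lay higher on Day 3 than on Day 1 without overlap of cultures, and 8.71% on Day 7. Cox7a2, the ubiquitous form, was 76.1%, 72.99% and 65.3% of the Cox7a group on Days 1, 3 and 7. The muscle form Cox7a1 stayed at 1.69% or less on average by day and reached 2.34% in a Day 1 culture. Cox7a2l, which links complexes III and IV, made up the rest with 22.3%, 26.2% and 33.7%. Of the reads of Cox7a2l and its near-identical gene together, the latter held 10.5%. The 3 genes for the same mature c subunit also shifted in share. Atp5g3 was 60.2% of the c transcripts on Day 1 (59.6% to 61.2%) and 48.5% on Day 7 (42.2% to 52.8%), while Atp5g2 was 27.1% (26.5% to 27.6%) and 39.5% (36.3% to 47.1%), with no overlap between these days for either. Both are shares of 1 group and not independent. By CPM, 8.71% of all genes were higher and 9.06% lower without overlap between these days. Atp5g1 stayed at 12.02% to 12.997%, with an annotated transcript of 4715 bases. A shorter transcript in these cells would raise its share and lower those of Atp5g2 and Atp5g3. In reads, Atp5g1 was highest on each day, with 32681 on Day 1 against 23341 for Atp5g3 and 10664 for Atp5g2. The order of the 3 genes by share thus depended on the annotated length. None of these isoform genes passed the test across all genes in a comparison of days.

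The mitochondrial genes took up 2.17%, 2.90% and 3.78% of gene reads in the Day 1 cultures. On Day 3 the shares were 2.92%, 4.41% and 4.67%, and on Day 7 they were 2.82%, 3.61%, 3.85%, 3.598% and 6.12%. Day 7 culture 5 was the highest of all, and the 3 days overlapped. The shares of the nuclear genes were narrower: 1.08%, 1.48% and 1.37% on Day 1, 1.29%, 1.76% and 1.37% on Day 3, and 1.25%, 1.31%, 1.39%, 1.33% and 1.56% on Day 7. These too overlapped between all days, with Day 3 culture 2 the highest and Day 1 culture 1 the lowest.

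The ratio of mitochondrial to nuclear reads compares both genomes within a culture and does not depend on scaling between cultures. It was 2.24 ± 0.45 on Day 1 (SD, n = 3), 2.73 ± 0.60 on Day 3 (n = 3) and 2.88 ± 0.61 on Day 7 (n = 5). On the log2 scale the mean lay 0.28 higher on Day 3 than on Day 1 and 0.36 higher on Day 7 than on Day 1, beside a pooled SD between cultures of 0.29, so the mean differences were of the size of the spread. Day 7 lay 0.08 above Day 3. The cultures are split over 2 deposited tables, the first with Day 1 culture 1, Day 3 culture 1 and Day 7 cultures 1 to 4 and the second with the other 5, and within each the order of the mean ratio was the same as the days: 2.01, 2.27 and 2.63 in the first, and 2.36, 2.96 and 3.91 in the second. The Day 1 and Day 3 values of the first table and the Day 7 value of the second rest on a single culture each. With the reads of the nuclear copies added, the ratios were 3.07 ± 0.63, 3.56 ± 0.78 and 3.67 ± 0.73.

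**Figure D1:**
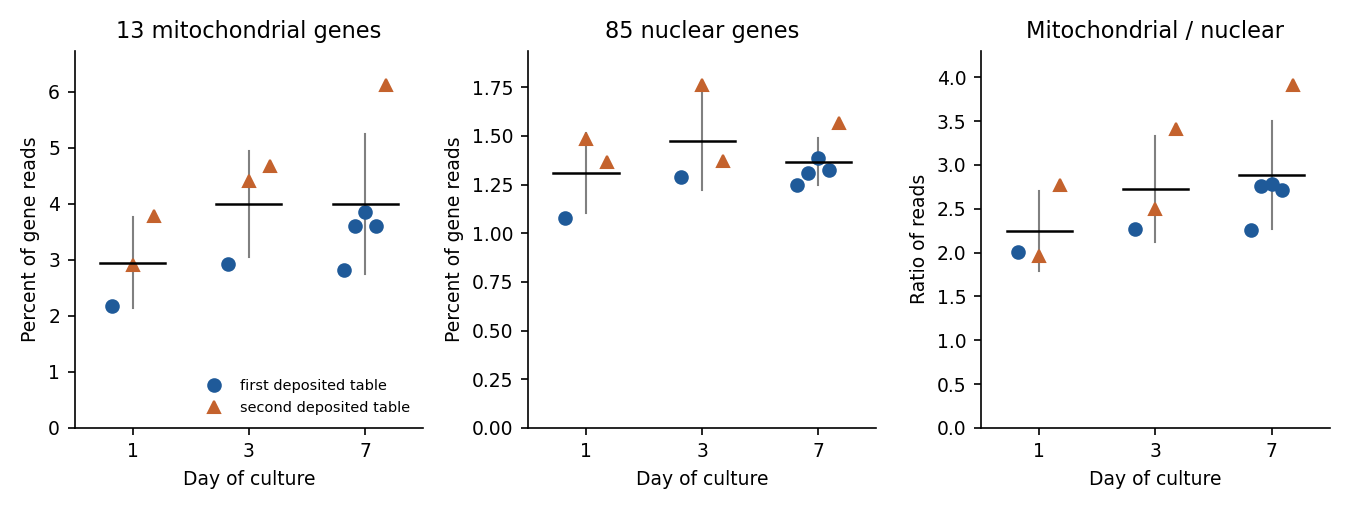
Percent of gene reads on the 13 mitochondrial genes (left) and the 85 nuclear genes (middle), and their ratio (right), by day of culture; each point is 1 culture, its shape and colour give the deposited table, the horizontal line is the mean and the vertical line 1 SD to each side. All days overlap in each panel, the second table lies higher than the first on most days, and Day 7 culture 5 has the highest mitochondrial share (6.12%) and ratio (3.91).

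Single cells also varied within cultures, and the width of their spread differed from culture to culture. The middle 80% of cells spanned mitochondrial shares of 1.54% to 3.80% in Day 1 culture 1, 1.79% to 13.4% in Day 1 culture 3 and 4.29% to 9.08% in Day 7 culture 5. The median over cells of the ratio was 1.68 to 1.98 in the Day 1 cultures, 1.98 to 2.42 on Day 3 and 2.12 to 3.92 on Day 7. Here the lowest Day 7 culture lay above the highest Day 1 culture, which was not so for the summed reads. Between cells of a culture, the transcripts of each genome moved with one another: the median Pearson correlation of log2 CPM was 0.58 to 0.88 over pairs of 12 mitochondrial genes, and 0.10 to 0.52 over pairs of 78 nuclear genes, while pairs of 1 gene from each genome gave -0.39 to 0.17. These correlations are across 37 to 86 cells of a culture that share library depth and quality. The mitochondrial share fell with the read total of the cell in all 11 cultures (Spearman's rho -0.63 to -0.09), and depth was not separated from the correlations.

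Next, the expression of each gene was compared between days, with a gene called changed at an adjusted p under 0.05 over all 17466 genes tested. Of the 98 genes, 80 nuclear and all 13 mitochondrial genes passed the filter on low counts. Between Day 1 and Day 3 no respiratory chain gene was called, and 0.0115% of all genes were. At an unadjusted p under 0.05 there were 6 nuclear genes and 1 mitochondrial gene (mt-Nd5), all higher on Day 3, beside 5.69% of all genes, and DESeq2 and limma called none either. The cultures did not overlap for 9 nuclear genes that were higher and 1 that was lower, beside 9.88% and 8.11% of all genes. The nuclear median was 0.18 (log2) with 61 of 80 genes higher, the mitochondrial median 0.27 with 12 of 13 higher, and the median of all genes 0.02, with 51% of all genes higher. Without Day 3 culture 2, whose nuclear share of 1.76% was the highest of all, the nuclear median was -0.13, and without Day 1 culture 1 it was -0.03.

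Between Day 1 and Day 7, 3 of 80 nuclear genes rose, none fell and no mitochondrial gene was called. Among all genes 7.11% were called, 3.55% higher and 3.56% lower, so the share of nuclear genes that rose, 3.75%, was close to the background. Those 3 were Atp5a1, Ndufs1 and Sdha, each a large subunit at the working centre of its complex.

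Atp5a1 encodes the alpha subunit, which with the beta subunit forms the head of ATP synthase where ATP is made. Its level was 656.95, 779.3 and 731.1 CPM in the Day 1 cultures, 1094, 1024 and 974 on Day 3, and 1312, 1375, 1156, 1076 and 1166 on Day 7. All Day 3 and Day 7 cultures lay above all Day 1 cultures. The fitted change from Day 1 to Day 7 was 0.75 ± 0.14 (log2, SE) with an adjusted p of 0.0098, and from Day 1 to Day 3 it was 0.51 ± 0.15 with an adjusted p of 0.319. Its call was kept in 21 of 24 alternative analyses.

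Ndufs1 encodes the largest subunit of complex I, which carries iron-sulphur clusters in the arm that takes electrons from NADH (chr1:63143596-63176833, reverse strand). It stood at 94.32, 119.4 and 121.2 CPM on Day 1, at 173.1, 127.3 and 156.8 on Day 3, and at 167.2, 204.2, 180.7, 186.2 and 180.4 on Day 7. Again the days after Day 1 did not overlap with it. The change to Day 7 was 0.72 ± 0.16, adjusted p = 0.0224, and its call was kept in 16 of 24 alternatives.

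Sdha encodes the flavoprotein that oxidises succinate in complex II, an enzyme shared with the citrate cycle (chr13:74322254-74350280, reverse strand). Its level was 125.3, 203.5 and 193.8 CPM on Day 1, 271.7, 229.3 and 267.9 on Day 3, and 287.1, 299.03, 314.1, 261.1 and 243.2 on Day 7, with no overlap between Day 1 and either later day. The change to Day 7 was 0.69 ± 0.18 with an adjusted p of 0.0412. This call was the least secure: it was kept in 7 of 24 alternatives, and the adjusted p was 0.0600 with the deposited table as a term. Leaving out Day 1 culture 1, the lowest in all 3 genes, left no respiratory chain gene called, and leaving out Day 1 culture 2, Day 1 culture 3 or Day 7 culture 4 left 1. Other tools called more genes, also of all genes: DESeq2 had 4 nuclear genes higher and 3 lower, beside 6.23% and 7.04%, and limma had 5 higher, beside 4.87%.

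**Figure D2:**
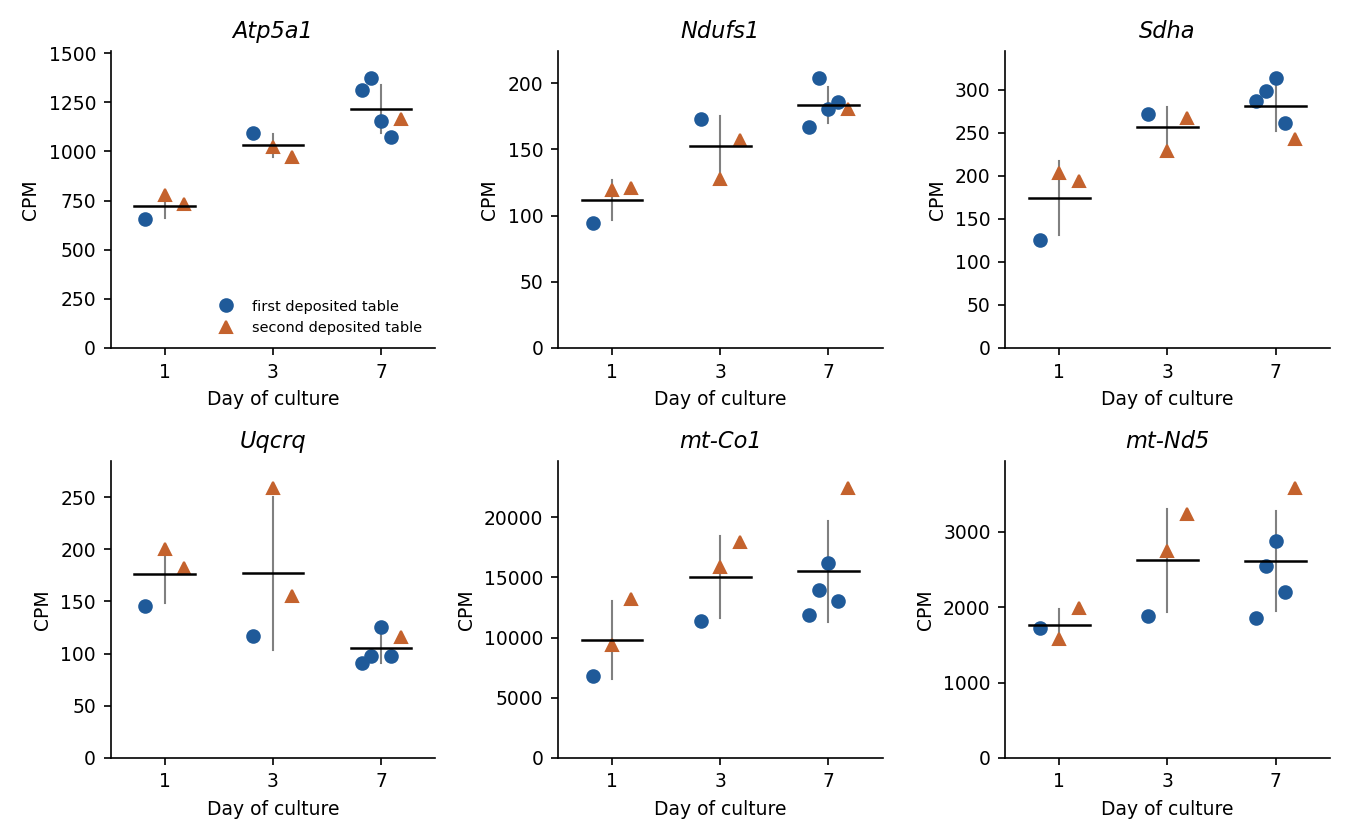
CPM of 6 genes by day of culture; each point is 1 culture, its shape and colour give the deposited table, the horizontal line is the mean and the vertical line 1 SD to each side. Atp5a1, Ndufs1 and Sdha are higher in every Day 3 and Day 7 culture than in any Day 1 culture, Uqcrq is lower in every Day 7 culture than in any Day 1 culture, and mt-Co1 and mt-Nd5 overlap between days.

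Other nuclear genes with no overlap between Day 1 and Day 7 did not pass the test. Higher on Day 7 were Atp5b (1395 ± 293.1 to 1908 ± 155.8 CPM, adjusted p = 0.106), Uqcrc1, a core protein of complex III (391.2 ± 55.32 to 552.01 ± 32.43, adjusted p = 0.0621), and Cox7a2l (71.8 ± 12.99 to 100 ± 20.43, adjusted p = 0.176). Lower were the small subunits Uqcrq of complex III, Ndufa3 of complex I and Atp5k of ATP synthase. These 6 higher and 3 lower of 80 stood beside 8.71% and 9.06% of all genes that did not overlap in these directions. Uqcrq had the largest negative value among well-detected genes, at 145.7, 200.4 and 181.9 CPM on Day 1 against 90.72, 97.24, 125.2, 98.06 and 115.8 on Day 7, a fitted change of -0.74 ± 0.23 with an adjusted p of 0.0752. Ndufa11, which helps hold the membrane arm of complex I, followed with -0.67 ± 0.23 (adjusted p = 0.0936). The lowest value, -0.94 ± 0.80 for the muscle gene Cox7a1, rested on levels of 2.48 and 1.29 CPM.

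Seen by complex, all 4 complex II genes had values above 0 (median 0.26, 1 called). Complex IV lay lowest among nuclear parts, with 12 of 14 genes below 0 and a median of -0.40, none of them called. The medians were -0.14 for 37 complex I genes (29 below 0), -0.15 for 8 complex III genes and -0.12 for 17 complex V genes, in a fit without the deposited table as a term, with which the median of all nuclear genes was 0.13. All genes together had a median of 0.00 and 50.1% above 0. The mitochondrial genes, by contrast, had medians of 0.21 in complex I, 0.28 in complex IV and 0.21 in complex V, with 11 of 13 above 0. Over 24 alternatives the signs of mt-Nd2, mt-Nd3, mt-Co2, mt-Nd1, mt-Atp6, mt-Atp8 and mt-Nd4 changed in 1 to 6 of them, and the median of the 13 lay between 0.04 (without Day 1 culture 1) and 0.67 (with the deposited table as a term and a length correction).

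**Figure D3:**
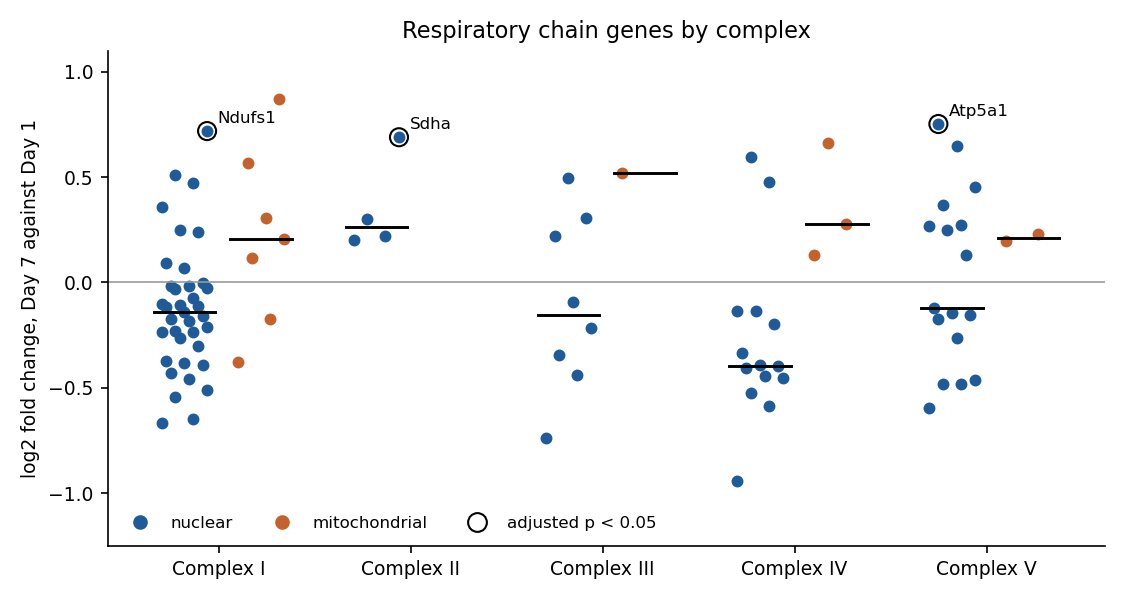
Log2 fold change from Day 1 to Day 7 for the 93 tested genes by complex; each point is a gene, blue for nuclear and orange for mitochondrial, short lines are medians and rings mark adjusted p under 0.05. The 3 ringed genes, Ndufs1, Sdha and Atp5a1, are the highest nuclear genes of their complexes, and most nuclear complex IV genes lie below 0.

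The nuclear genes were also described by role. A group of 14 core subunits was formed after the Day 7 values had been seen and because several of them were high there, so the values below describe that choice and carry no test: the 7 nuclear genes of the conserved complex I core (among them Ndufs1, Ndufs8 and Ndufv1), the 4 genes of complex II, the Rieske protein Uqcrfs1 and the ATP synthase head genes Atp5a1 and Atp5b. These bind the flavins, iron-sulphur clusters and haems or hold the sites of ATP synthesis, apart from a few that support them. From Day 1 to Day 7, 13 of the 14 had values above 0 (median 0.33, 3 called), against 12 of the other 66 (median -0.20, none called). Within complex I by gene name, 6 of 7 core genes were above 0 and 28 of 30 accessory genes, Ndufa4 included, below in this fit. The direction of the other 66 was not stable: with the deposited table as a term 40 of them were above 0 (median 0.08) and all 14 core genes were (median 0.48), and within the first table alone 41 of 66 were (median 0.06). Over 24 alternative analyses the median of the 66 ranged from -0.44 to 0.11 and that of the core genes from 0.16 to 0.51. The difference of the medians, core minus other, was 0.53 and lay between 0.31 and 0.69 in these analyses. For Day 3 against Day 1, which shares the Day 1 cultures, it was 0.20, and for Day 7 against Day 3 it was 0.40, with alternatives reaching down to 0.06 and 0.02.

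The same genes can be described within each culture, where scaling plays no part; these are the cultures in which the 14 genes were chosen, so a higher Day 7 value adds no support. Over the nuclear genes with a mean of at least 10 CPM, the mean log2 CPM of the 14 core genes exceeded that of 64 others by 0.70, 0.68 and 0.68 in the Day 1 cultures. On Day 7 the differences were 1.29, 1.301, 1.21, 1.26 and 1.11. Within the first table the difference went from 0.70 on Day 1 to 1.21 or more on Day 7, and within the second from 0.68 to 1.11. The Day 3 cultures were spread between these levels and below, at 1.19, 0.58 and 0.86. In reads, the core genes had 0.42 ± 0.01 reads for each read of the others on Day 1, 0.51 ± 0.13 on Day 3 and 0.64 ± 0.06 on Day 7.

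Core subunits also have the longer transcripts, with a median of 1642 bases against 760 for the others, and length moved with the fold change. Over the 80 nuclear genes Spearman's rho of the Day 7 change with transcript length was 0.53, over the 13 mitochondrial genes 0.19 and over all genes -0.05 (across genes, which are not replicates). Of 25 nuclear respiratory chain genes of up to 700 bases 1 was above 0 (median -0.34), against 19 of 28 over 1200 bases (median 0.23). Well-expressed genes outside the class, with a mean of at least 30 CPM, showed a smaller gap in the same direction: their median was -0.06 over 91 genes of up to 700 bases and 0.21 over 4619 genes longer than 1200. Genes for cytosolic ribosomal proteins, which are short and abundant as well, had a median of 0.10 over 67 genes, 45 of them above 0. After a correction for transcript length in each culture, rho was 0.42 and the core minus other difference 0.45, with 5 genes called: Atp5a1, Ndufs1, Uqcrc1 and Sdha higher and Uqcrq lower, beside 4.63% and 3.74% of all genes. With it, the median of the other 66 genes was -0.06 with 23 above 0, and that of the 14 core genes 0.38 with all above 0. The median of all genes was then 0.07. The correction followed the relation with length over all tested genes in each culture, not the relation within this class. The values that remained after it therefore do not measure the part of length in the core values, which was not tested.

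**Figure D4:**
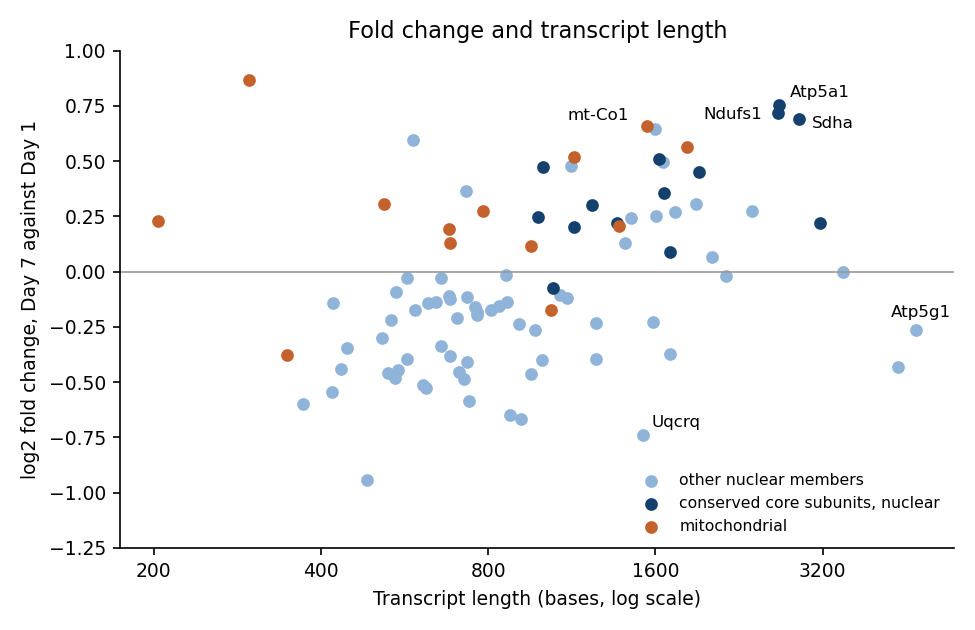
Log2 fold change from Day 1 to Day 7 against transcript length (log axis) for the 93 tested genes; dark blue points are the 14 core nuclear subunits, light blue the other 66 nuclear genes and orange the 13 mitochondrial genes. Short nuclear genes lie below 0, with 1 exception among 25 of up to 700 bases, and Atp5a1, Ndufs1 and Sdha are long and high.

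The 13 mitochondrial genes had no call in the comparison by day alone, at -0.38 to 0.87. The largest among well-detected genes were mt-Co1 (6809, 9396 and 13244 CPM on Day 1, 11910, 13917, 16208, 13050 and 22464 on Day 7; 0.66 ± 0.26, adjusted p = 0.141) and mt-Nd5 (0.57 ± 0.23, adjusted p = 0.155). Values for mt-Cytb (0.52), mt-Nd6 (0.31), mt-Co3 (0.28), mt-Atp8 (0.23), mt-Nd4 (0.21), mt-Atp6 (0.19), mt-Co2 (0.13) and mt-Nd1 (0.12) were smaller than 2 standard errors, as were mt-Nd2 (-0.17), mt-Nd3 (-0.38) and mt-Nd4l, whose 0.87 rested on 2.32 and 4.24 CPM. Cultures of the second table were higher in mt-Co1 than those of the first on every day.

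With the deposited table added to the fit as a term, this comparison changed. From Day 1 to Day 7, 6 of 13 mitochondrial genes then rose, beside 2.73% of all genes: mt-Co1 by 0.98 ± 0.15 (adjusted p = 0.0072), mt-Cytb by 0.92 ± 0.22 (0.0353), mt-Atp6 by 0.83 ± 0.17 (0.0174), mt-Nd5 by 0.74 ± 0.19 (0.0445), mt-Co2 by 0.70 ± 0.13 (0.0123) and mt-Co3 by 0.56 ± 0.13 (0.0335). The mitochondrial median was 0.60, and the nuclear median turned from -0.14 to 0.13, with Atp5a1, Ndufs1, Uqcrc1 and Ndufs8 called. Since 4 of 5 Day 7 cultures are in the first table and 2 of 3 Day 1 cultures in the second, table and day are partly confounded. The first table has 1 Day 1 culture and the second 1 Day 7 culture, so fits of a single table can hardly call a gene. The mitochondrial median in them was 0.51 in the first and 0.53 in the second. The 13 genes share transcripts, and the 6 calls are not independent of each other. With the copies' reads added as well, mt-Co1, mt-Co2, mt-Cytb and mt-Nd5 were called and mt-Co3 and mt-Atp6 were not, and with the 4 nuclear genes these made 8, beside 2.72% of all genes. A length correction together with the table term also gave 8, beside 2.93%.

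Between Day 3 and Day 7 no respiratory chain gene was called, beside 0.183% of all genes that rose and 0.784% that fell, and DESeq2 and limma called none. The nuclear median was -0.30 with 63 of 80 genes below 0, including all 30 accessory complex I genes, against 50.8% of all genes above 0. At an unadjusted p under 0.05 there were 11 nuclear genes, all lower, beside 7.13% of all genes. Cox6a1 alone had no overlap between these days and was lower, beside 5.14% of all genes. Day 3 culture 2 weighed on this: without it the nuclear median was -0.04, and in the first table alone it was 0.12. The mitochondrial median was -0.02.

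Genes that build or serve the chain were counted next, in 7 lists, beside 3.55% of all genes called higher and 3.56% called lower from Day 1 to Day 7. Of 49 assembly factors 2 rose from Day 1 to Day 7, the ATP synthase factors Atpaf1 (26.3 ± 2.41 to 59.8 ± 10.6 CPM, 1.19 ± 0.20, adjusted p = 0.0060) and Atpaf2 (27.6 ± 3.32 to 54.02 ± 13.9, 0.97 ± 0.25, adjusted p = 0.0348), which help the beta and alpha subunits to assemble into the head. The median of the list was 0.05, with 26 of 49 above 0. Of 23 protein import genes 1 rose, the matrix chaperone Hspa9 (262.2 ± 22.6 to 416.1 ± 53.4 CPM, adjusted p = 0.0463), and Timm50, a channel subunit, had 0.72 ± 0.26 (adjusted p = 0.109). The median was 0.07, with 14 of 23 above 0. The calls in these 2 lists were near the share of all genes. Of 10 regulators of mitochondrial biogenesis 1 rose, Nrf1, a transcription factor of many nuclear respiratory genes (24.4 ± 6.58 to 50.2 ± 9.64 CPM, 1.04 ± 0.26, adjusted p = 0.0327), while Yy1 stood at -0.86 ± 0.24 (adjusted p = 0.0505). This list had 4 of 10 genes above 0 and a median of -0.25.

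No gene was called in 4 further lists, although most values lay above 0. In the citrate cycle list this was 18 of 19 genes (median 0.44), among them citrate synthase Cs (adjusted p = 0.0572). For the maintenance and transcription of mitochondrial DNA it was 17 of 21 (median 0.53), led by the packaging and transcription factor Tfam (35.6 ± 2.65 to 55.8 ± 7.57 CPM, adjusted p = 0.0528) and Tfb2m (0.116). For mitochondrial RNA processing it was 16 of 20 (median 0.50), led by 1110008L16Rik (0.0526) and the tRNA-cutting Elac2 (0.0730). For electron carriers outside the rule it was 11 of 14 (median 0.33), led by Etfa (0.0827) and the coenzyme Q enzyme Coq3 (0.109). In the same fit 50.1% of all genes lay above 0. Of 4619 genes outside the class longer than 1200 bases, with a mean of at least 30 CPM, 3022 did (median 0.21). The 66 nuclear subunits outside the core had a median of -0.20 in this fit and of 0.08 with the deposited table as a term, so its sign depended on that term. Values of the lists with that term are not given here.

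The promoters of nuclear respiratory genes are known for sites of NRF1, of ETS factors such as GABP, and of YY1. RefSeq promoters (GRCm38.p6, 250 bases before to 50 after the start) were matched for 70 of the 85 nuclear genes and set beside 27025 genes with the same window. The core GCATGCGC of the NRF1 motif was present in 14.3% of the 70 and in 3.05% of all genes. Its palindromic form, in which GC precedes this core, was present in 5 of the 70 (7.14%) and in 1.07% of all genes. The ETS motif CCGGAAG was found in 22.9% and 9.93%, and the YY1 motif AAGATGGC in 15.7% and 3.19%, each on either strand. Of the 3 nuclear genes that rose by Day 7, Atp5a1 and Ndufs1 had no matched promoter, and the promoter of Sdha held none of these motifs. Windows of 30 bases around the palindrome, in capitals, are shown for the 5 genes, since Nrf1 was among the genes that rose and 1 of the 5, Uqcrc1, was among the higher genes on Day 7 while Atp5k and Ndufa11 were among the lower:

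Uqcrc1 (chr9:108936668-108936697, forward): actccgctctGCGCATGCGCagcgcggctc

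Atp5k (chr5:108434430-108434459, reverse): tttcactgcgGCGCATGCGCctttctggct

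Ndufa11 (chr17:56717692-56717721, forward): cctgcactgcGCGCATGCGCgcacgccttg

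Cox6a1 (chr5:115349101-115349130, reverse): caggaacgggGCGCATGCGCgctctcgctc

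Atp5g2 (chr15:102671070-102671099, reverse): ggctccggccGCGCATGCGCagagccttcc

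The first base of the motif lay 42, 50 and 60 bases upstream of the start in Atp5g2, Atp5k and Ndufa11, farther upstream in Cox6a1 and 31 bases downstream in Uqcrc1. The Day 7 values of the 5 genes ran from -0.67 (Ndufa11) through -0.60 (Atp5k), -0.39 (Cox6a1) and 0.37 (Atp5g2) to 0.50 (Uqcrc1), none of them called. Genes with the same letters thus lay on both sides of 0, and a link of these values to Nrf1 was not tested.

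Finally, proliferating and other cells were compared within the same cultures. After thinning to 200000 reads, a cell counted as proliferating if it had reads in 3 or more of the genes Tpx2, Ccnb2, Birc5, Cdk1, Top2a and Mki67. This held for 49.6% of cells, with 58 cells at 2 genes and 45 at 3, on either side of the limit. The classes differ by a range of these genes and are not cell types. The share of reads on nuclear respiratory genes was higher in proliferating cells in 10 of 11 cultures. In Day 7 culture 4, for example, it was 1.27% in other and 1.35% in proliferating cells. The mitochondrial share went the other way in 8 of 11 cultures, as in Day 7 culture 4 with 4.201% in other and 3.38% in proliferating cells. The ratio of both was accordingly lower in proliferating cells in 8 of 11 cultures, the exceptions being Day 1 culture 2 and Day 3 cultures 2 and 3, all from the second table. Proliferating cells also had more genes at equal depth in 10 of 11 cultures, and the part of that in these shares was not tested.

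**Figure D5:**
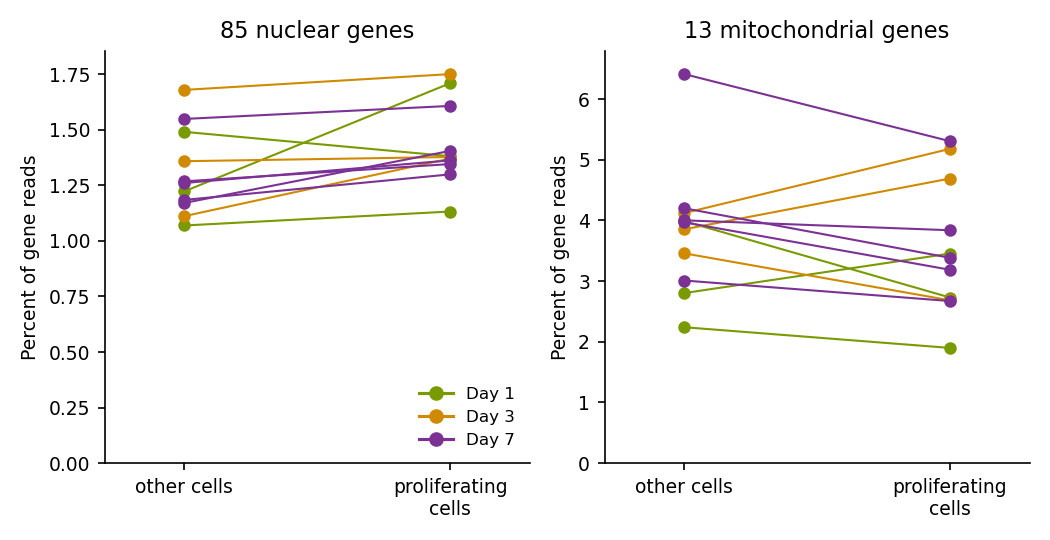
Percent of gene reads on the 85 nuclear genes (left) and the 13 mitochondrial genes (right) in other and proliferating cells; each line is 1 of 11 cultures, coloured by day. The nuclear share is higher in proliferating cells in 10 of 11 cultures and the mitochondrial share lower in 8 of 11.

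Over the 11 cultures, with culture as a block, 9 of 80 nuclear genes rose in proliferating cells and 2 fell, 11.3% and 2.5% beside 8.19% and 5.51% of all 13210 genes tested. No mitochondrial gene was called, with 2 at an unadjusted p under 0.05 (mt-Co1 and mt-Co3, both lower, beside 12.4% of all genes), and their median was -0.07 against 0.10 for the nuclear genes and -0.03 for all genes, of which 47.3% were above 0. The clearest were Ndufab1, the acyl carrier protein that serves complex I and fatty acid and iron-sulphur synthesis (125.5 ± 38.6 to 166.9 ± 40.8 CPM, 0.43 ± 0.08, adjusted p = 0.0018), and Ndufv1, the NADH-binding core subunit (143.2 ± 24.2 to 187.7 ± 27.2, 0.40 ± 0.08, adjusted p = 0.0029), both higher in 11 of 11 cultures. Cox7a2 rose by 0.43 ± 0.10 (adjusted p = 0.0073, higher in 10 of 11). The others that rose were Ndufb7 (0.30), Ndufa5 (0.42), the complex II anchor Sdhd (0.37), the ATP synthase stalk genes Atp5j (0.31) and Atp5o (0.26), and Cox6a1 (0.23). Those that fell were Ndufa6 (-0.34, lower in 11 of 11) and Cox7a2l (-0.30, lower in 10 of 11), 1 of the 7 nuclear genes with many reads on a near-identical gene. Ndufab1, Ndufv1 and Cox7a2 kept their calls in 17 of 17 alternatives, Cox7a2l in 10 and Cox6a1 in 3. The Cox7a2l call was lost when any 1 of Day 7 cultures 1 to 4 or Day 3 culture 2 was left out, with adjusted p up to 0.125 over the alternatives. The 3 genes that rose by Day 7 were not called here, with values of 0.06 for Atp5a1, 0.29 for Ndufs1 and -0.01 for Sdha, and the core and other nuclear genes had similar medians of 0.07 and 0.11.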

How the data were processed

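Expected counts per gene and cell were deposited by the authors in 2 tables (SmartSeq2, no molecular identifiers, no normalisation). Tools named in the submitters' processing notes are STAR 2.5.3a and RSEM 1.3.0, with builds mm10 and GRCm38. Of values above 0, 10.6% were not whole, so counts were rounded. Cells with at least 50000 reads, 1500 genes and at most 20% mitochondrial reads were kept (182 of 192 on Day 1, 228 of 255 on Day 3, 301 of 321 on Day 7) and summed per culture. Of these 711 cells, 695 had at least 200000 reads and were thinned (345 proliferating, 350 other). Days were compared with edgeR 4.0.16 in R 4.3.3 (TMM, filterByExpr, quasi-likelihood F-test, day as the only term, Benjamini-Hochberg adjustment); proliferating cells with culture as a block. CPM uses TMM-scaled totals. Alternatives used DESeq2 1.42.0, limma 3.58.1 and the settings in the closing section, and the fits were tested on simulated data. Transcript lengths, coordinates and copies come from GENCODE M21 (GRCm38), with coordinates for the 82 genes of the same version. The genes named were all 13 mitochondrial genes, every called gene, isoform groups, the highest and lowest genes by complex and by Day 7 change, and 2 genes per list by p; some genes under this rule are not reported here. The members and lists were chosen with earlier results of these data known.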

Additional observations from a re-analysis of the deposited data

Results flagged for a closer look

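Of 39 values of named genes and sums checked over the 5 Day 7 cultures, 6 had 1 culture far from the others. Chance flags about 1 in 20 such groups. Day 7 culture 5, the only Day 7 culture in the second table, was the high one in 5: mt-Co2 at 5189 CPM (next 2692), mt-Atp6 at 3960 (next 1957), mt-Co3 at 4311 (next 3505), the nuclear copies of mitochondrial genes at 1.57% of reads (next 1.03%), and the ratio of mitochondrial reads, copies included, to nuclear reads at 4.91 (next 3.52). Day 7 culture 1 had 2.12% of reads on the 2 mitochondrial ribosomal RNA genes (next 1.065%), while its share on the 13 mitochondrial protein genes, 2.82%, was the lowest of Day 7.

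Reads outside the genes compared also appeared. The nuclear copies held 1.15% of all reads. Sequences of the ERCC spike-in set had 42 reads in Day 1 culture 1 and 5 in Day 3 culture 2, and 0 in the other 9 cultures. The causes were not tested.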

How the results depend on the processing

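Between Day 1 and Day 7, 3 genes were called. The number was 1 without a filter on low counts, 10 with the deposited table as a term, 5 by limma and 7 by DESeq2 (4 higher, 3 lower). Of the settings chosen after seeing the data, it was 5 with a length correction, 8 with that and the table term, and 8 with the table term and the copies' reads added. Leaving out 1 culture at a time gave 0 to 3. The counts for the other pairs of days were 0 in all 22 alternatives. Without the limit on mitochondrial reads the mitochondrial median was 0.34 for Day 3 against Day 1, beside 0.27 with it. For Day 7 against Day 1 it was 0.30, beside 0.23. Same-numbered cultures of different days correlated at -0.01 to 0.06 in their deviations from the day means (9 pairs, median 0.03). Differently numbered ones correlated at -0.09 to 0.07 (30 pairs, median -0.01). These values do not settle whether numbers link cultures, which the labels do not say. Numbers were not taken as pairs in the main fit. With the replicate number as a block, Day 7 against Day 1 gave 2 genes (Atp5a1 and mt-Co1). In proliferating cells 11 genes were called, 4 without the filter, and 6 to 12 with 1 culture left out, 6 of them without Day 3 culture 1 or Day 3 culture 2. The log2 ratio of mitochondrial to nuclear reads was 0.36 and 0.08 over all cultures but, in the second table only, 0.75 for Day 7 against Day 1 and 0.42 for Day 7 against Day 3, each with 1 Day 7 culture. Left-out cultures gave 0.24 to 0.52 and -0.04 to 0.25 for these, and 0.10 to 0.44 for Day 3 against Day 1. The cause of these changes was not tested.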
